A study of Mus musculus with 8 samples.

Results

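The expression of 40 genes of the microtubule cytoskeleton and of axon growth was examined in the superior cervical ganglia of newborn mice. The genes were taken by symbol from the 23827 rows of the count table, and all 40 were found. They comprised 4 alpha tubulins, 7 beta tubulins, 1 gamma tubulin, 9 structural microtubule-associated proteins (MAPs), 3 end-binding proteins, 4 stathmins, 2 doublecortin family members, 5 collapsin response mediator proteins (CRMPs), the growth cone protein gene Basp1 and 4 genes that process tubulin or cut microtubules. The last groups go beyond tubulins, MAPs and stathmins.

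Ganglia came from animals on postnatal day 1, of the strain given as C57Bl6/n. The 4 control animals were KIF1Bb fl/fl without Cre (DBHcre -/-), and the 4 conditional knockout (cKO) animals were KIF1Bb fl/fl with Cre (DBHcre +/-). Both groups thus carried the floxed allele of the kinesin KIF1B beta, and no control animal carried Cre. Cre under the Dbh promoter acts in noradrenergic cells, so that the glia, vessels and connective tissue of the ganglion should keep the gene. Counts of whole ganglia do not show this. Each library was made from the pair of ganglia of 1 animal, and its counts join all cell types and all isoforms of a gene.

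Microtubules are hollow polymers of alpha and beta tubulin that stiffen axons and serve as tracks for kinesins, KIF1B beta among them, and for dynein. Structural MAPs bind along the lattice, end-binding proteins follow growing plus ends, and stathmins hold tubulin dimers apart from the polymer. Sympathetic neurons extend their axons around birth and make large amounts of neuronal tubulins, of stathmin-2 and of growth cone proteins.

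Total counts per library were between 16214912 and 18114418. The targeted gene Kif1b lay between 933 and 1454 CPM (read counts scaled to library size) in control and between 191 and 302 CPM in cKO ganglia, with an edgeR adjusted p of 3.43e-04. Of 14592 tested genes, 397 (2.72%) passed at an adjusted p below 0.05, 234 of them higher and 163 lower in cKO ganglia (343 and 145 with scaling by library size alone). The counts were lower without control 4 (33 and 41), control 2 (39 and 40), cKO 3 (79 and 58) or cKO 2 (75 and 72), and the genes that passed higher numbered 138 without control 3 and 153 without cKO 4.

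The tubulin genes encode proteins that differ most in their C-terminal tails, where tyrosine and glutamate are added and removed. The last 54 coding bases, the stop codon included, are shown for the alpha tubulins Tuba1c and Tuba4a and for 5 beta tubulins, as the coding of these tails bears on the enzymes Ttl and Agtpbp1 described further on. Capitals mark the last codon before the stop codon.
Tuba1c: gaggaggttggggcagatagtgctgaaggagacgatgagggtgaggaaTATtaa
Tuba4a: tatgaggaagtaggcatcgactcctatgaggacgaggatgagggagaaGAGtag
Tubb2a: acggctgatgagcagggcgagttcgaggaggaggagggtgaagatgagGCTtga
Tubb2b: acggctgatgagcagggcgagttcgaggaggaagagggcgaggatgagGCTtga
Tubb3: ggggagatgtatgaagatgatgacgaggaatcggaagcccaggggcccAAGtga
Tubb4a: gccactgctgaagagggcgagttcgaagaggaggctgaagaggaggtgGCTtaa
Tubb5: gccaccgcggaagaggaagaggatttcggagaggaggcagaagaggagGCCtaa

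These stretches come from GENCODE vM21 on GRCm38 and lie in the last coding exon of each gene. They are at chr15:99037956-99038009 (plus strand) for Tuba1c and chr1:75215622-75215675 (minus) for Tuba4a. Those of the beta tubulins are at chr13:34074468-34074521 (minus) for Tubb2a, chr13:34127471-34127524 (minus) for Tubb2b, chr8:123421629-123421682 (plus) for Tubb3, chr17:57080690-57080743 (minus) for Tubb4a and chr17:35834982-35835035 (minus) for Tubb5. Tuba1c ends in the tyrosine codon TAT, while Tuba4a ends in the glutamate codon GAG. Of the 17 codons shown before the stop, 7 encode glutamate in Tuba4a, 6 in Tuba1c, 9 in Tubb4a and Tubb5, 8 in Tubb2a and Tubb2b and 5 in Tubb3. Over the whole coding sequence Tuba1a was 98.3% identical to Tuba1b and 97.1% identical to Tuba1c, and Tubb2a was 96.5% identical to Tubb2b. Values of these genes are uncertain to the extent that the counting moved reads between them. Tuba4a was 84.7% identical to Tuba1a, and Tubb3 between 81.4% and 85.9% identical to the other beta tubulins.

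Levels of different genes were compared in control ganglia as CPM per kb of exon. All annotated exons of a gene were joined, so the order depends on which isoforms are annotated. Stmn2, for example, had 5571 CPM over 5602 bases, and Tuba1a 3890 CPM over 1803 bases. Tuba1a, the main alpha tubulin of growing neurons, had the highest level at 2157 ± 282 CPM per kb (SD, n = 4). It was followed by the beta tubulins Tubb5, at 1900 ± 171, and Tubb3, the neuron-specific isotype, at 1869 ± 195 CPM per kb. The libraries of these 3 genes overlapped, and all of them lay above the libraries of the next genes, Stmn3 and Stmn2, at 996 ± 185 and 994 ± 91.9 CPM per kb. Tubb2b, Tubb2a and Tubb4a came next, at 725 ± 82.9, 649 ± 50.5 and 524 ± 46.4 CPM per kb. Below Tubb4a, which did not overlap with the gene after it, came Basp1, Map1b, Dpysl3, Crmp1, Stmn4 and Mapt, with means from 299 to 144 CPM per kb and with each gene overlapping its neighbour. Map2, the MAP of dendrites, was at 34.3 ± 4.16 CPM per kb, and Mapt, which encodes tau of axons, at 144 ± 22.6. Their joined exons were 16449 and 7531 bases long. The lowest members were Map1s, at 6.20 ± 1.68, Map7, at 5.92 ± 0.782, and Tuba1c, at 1.56 ± 0.459 CPM per kb. Of the neighbours in the whole order of 40 genes, the libraries separated only after Tubb3, Stmn2, Tubb2a, Tubb4a, Mapre1, Tubb6 and Map7.

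None of the 40 genes passed in edgeR between cKO and control ganglia, against a background of 1.12% of all tested genes that passed lower and 1.6% that passed higher. Most log2 fold changes were small and negative: 36 of 40 were below 0 (33 with scaling by library size alone), and the median was -0.20, beside 7309 of 14592 below 0 and a median of -0.000618 over all tested genes. At an unadjusted p below 0.05, 11 members were lower in cKO ganglia (27.5%; background 7.42%) and 0 were higher (background 9.42%). These 11 were Tuba4a, Tubb2a, Tubb2b, Tubb3, Tubb4a, Map2, Map7, Map9, Dclk1, Dpysl2 and Ttl. All cKO libraries were below all control libraries for 4 members (10%; background 5.02%), Tubb2a, Tubb4a, Map2 and Map7. Such a separation by itself fixes the p of the two-sided exact permutation test at 0.0286, its lowest value with 4 against 4 libraries. That p therefore adds nothing to the separation of these 4 genes. The plot of log2 fold changes shows how the members of each role were placed. Other tools gave different counts: limma voom called 0 members, limma voom with sample weights 4 (Tuba4a, Tubb2a, Map1a and Map7; background 4.5%) and the Wald test of DESeq2 also 4 (Tuba4a, Map2, Map7 and Dpysl2; background 3.07%), all lower in cKO ganglia.

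**Figure D1:**
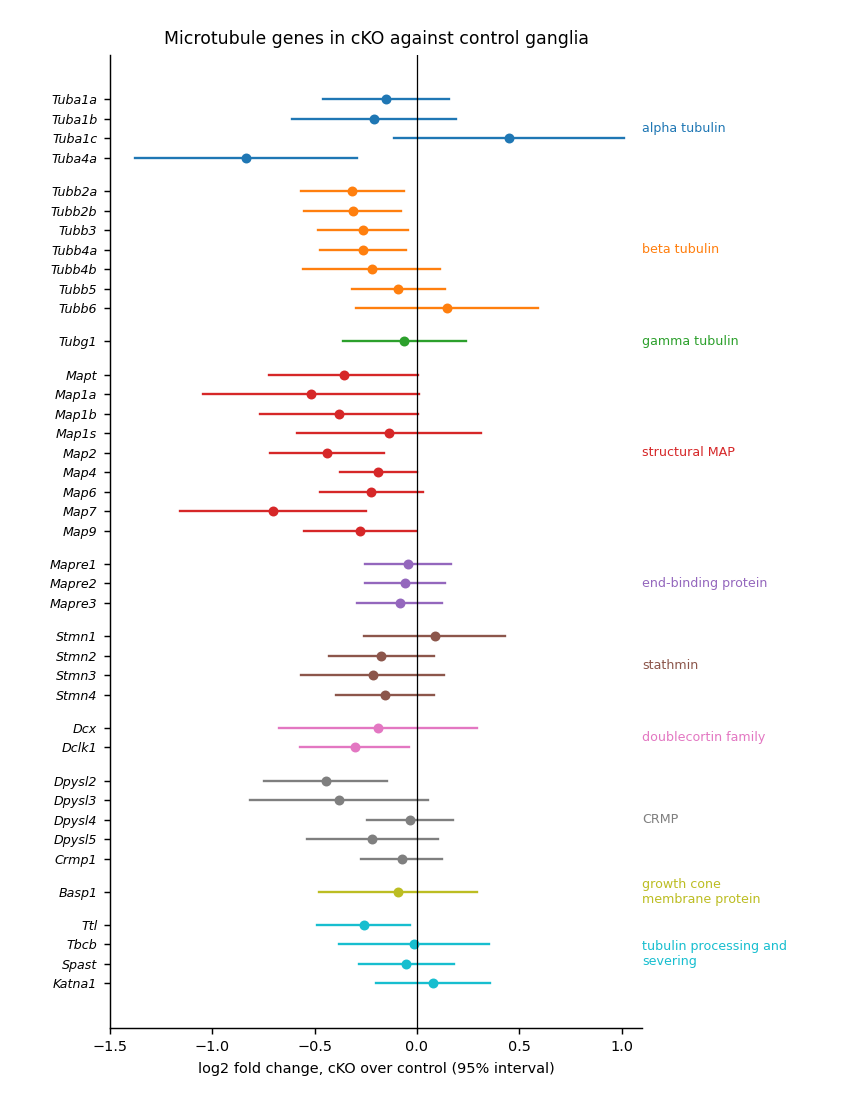
Log2 fold change of cKO over control ganglia (x axis) for each of the 40 genes (y axis), in the colour of its role; points are edgeR estimates from 4 against 4 libraries and lines their 95% intervals. Of the 40 points 36 lie below 0, Tuba4a has the lowest at -0.83, and all 3 end-binding proteins lie within 0.1 of 0.

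Together the 40 genes held 3.86% to 4.28% of the scaled counts in control and 3.30% to 3.66% in cKO libraries, groups that did not overlap. The 20 markers of noradrenergic and other neurons, such as Th and Dbh of noradrenaline synthesis, were all detected. Their summed level was between 19850 and 21030 CPM in control and between 17510 and 18380 CPM in cKO libraries. None of these 20 passed in edgeR, 5 were lower (25%; background 7.42%) and 1 was higher (background 9.42%) at an unadjusted p below 0.05, and their median log2 fold change was -0.14. The 2 with the smallest p went opposite ways, the noradrenaline transporter gene Slc6a2 with -0.51 and the secretory granule gene Chga with 0.48 (adjusted p = 0.0545 for both). The ratio of the members' sum to that of the neuronal markers was between 1.91 and 2.09 in control and between 1.85 and 2.00 in cKO libraries, so that the groups overlapped on this scale. The neuronal sum is weighted to abundant markers. Slc6a2 went from a mean of 3829 CPM in control to 2694 CPM in cKO libraries, and Prph from 2806 to 2104 CPM. Dbh went from 2421 to 2117 CPM, while Uchl1 was at 2538 and 2523 CPM. Of the 20 markers, 5 had log2 fold changes above 0. The ratio without Slc6a2 and Prph was not examined. In RNA from whole ganglia, fewer neurons and less of these transcripts per neuron cannot be told apart.

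The marker lists of 4 other cell types had higher sums in cKO libraries, where 1.6% of all tested genes passed higher. Of 12 markers of satellite glia and Schwann cells 2 passed, Mbp and Apoe, with log2 fold changes of 0.74 and 0.63, and the sum of the list was between 2170 and 2781 CPM in control and between 3266 and 3805 CPM in cKO libraries. This sum is weighted to Apoe, with means of 1381 CPM in control and 2142 CPM in cKO libraries. Fabp7 was at 369.5 and 354.2 CPM, while 11 of the 12 markers had log2 fold changes above 0. Of 10 fibroblast markers 6 passed, among them Ogn and Pdgfra at 0.97 and 1.02, with sums between 5266 and 6771 CPM and between 7314 and 10720 CPM. That sum is weighted to Col3a1, Col1a2 and Col1a1, with means of 2696, 1598 and 1091 CPM in control libraries. All 10 had log2 fold changes above 0. Of 10 endothelial markers 3 passed (sums of 185 to 258 and 305 to 324 CPM) and of 9 pericyte and smooth muscle markers 2 (214 to 227 and 320 to 438 CPM). The groups did not overlap in any of these 4 sums. None passed in edgeR among the tested 9 macrophage, 12 cell division, 6 sensory neuron and 8 muscle and cartilage genes, of which 1, 3, 1 and 2 were higher at an unadjusted p below 0.05 (background 9.42%), and the groups overlapped in the sums of these lists. No list had a marker at 0 in all libraries among those with a row. The part of these shifts in the values of the microtubule genes was not tested.

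**Figure D2:**
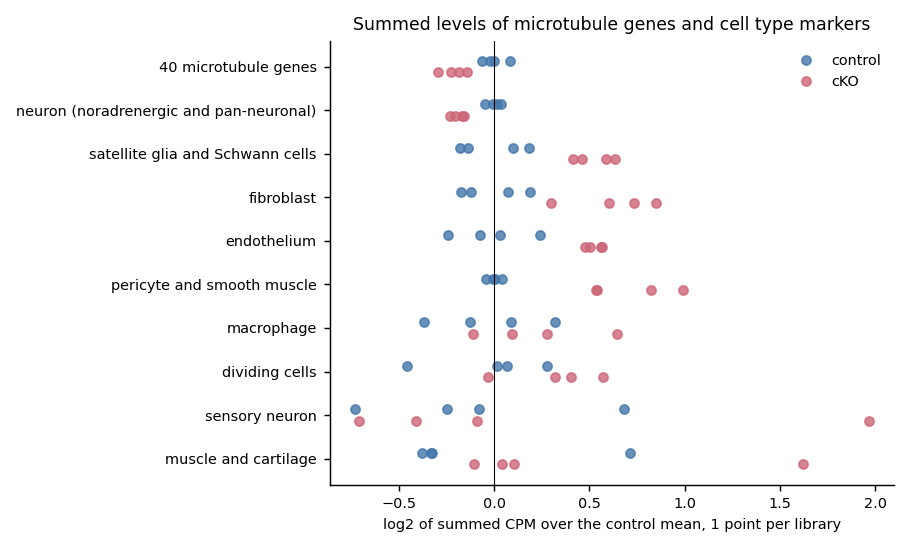
Summed CPM of the 40 microtubule genes and of 9 cell type marker lists (y axis), as log2 of the ratio to the control mean (x axis), with 1 point per library. For microtubule genes and neuronal markers every cKO library lies below every control library, and for glial, fibroblast, endothelial and pericyte markers every cKO library lies above.

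Tuba1a, on chromosome 15 (98949837 to 98953703, minus strand), made up 95.5% ± 0.437 of alpha tubulin in control (SD, n = 4) and 95.9% ± 0.447 in cKO ganglia, as shares of the summed CPM per kb of the 4 genes. Its own level was 3890 ± 508 CPM in control ganglia and 3499 ± 583 CPM in those of cKO animals, a log2 fold change of -0.15 (95% interval -0.46 to 0.16). Tuba1b, the isotype of most dividing cells, had a log2 fold change of -0.21 (-0.61 to 0.19). Tuba1c, at 2.27 to 4.83 CPM in control and 3.46 to 6.33 CPM in cKO libraries, had the highest of all members at 0.45 (-0.11 to 1.01).

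Tuba4a, the alpha tubulin whose coding sequence does not end in a tyrosine codon, had the lowest log2 fold change of the 40 genes. On chromosome 1 (75214228 to 75219865, minus strand), it was at 45.9, 62.6, 78.0 and 66.9 CPM in control 1 to 4 and at 23.6, 36.5, 28.3 and 53.6 CPM in cKO 1 to 4. Control 1 and cKO 4 were the libraries through which the groups overlapped. The log2 fold change was -0.83 (edgeR, SE 0.24, adjusted p = 0.105; exact permutation p = 0.0571). Without cKO 4 it was -1.10 and passed (edgeR adjusted p = 0.0262), as did Map7, where 1.2% of all genes tested passed lower. It did not pass without any other single library, with -0.70 without cKO 1 (adjusted p = 0.146) and an adjusted p of up to 0.245 without control 2. Of all libraries, cKO 4 had the highest sum of sensory neuron markers, 203 CPM against 31.3 to 83.2 CPM in the other 7. The part of this in its Tuba4a level was not tested. As a share of alpha tubulin, Tuba4a was 0.630% to 0.833% in control and 0.373% to 0.625% in cKO libraries, groups that lay apart by a narrow gap. Tuba4a overlaps Stk16 on the opposite strand, whose log2 fold change was 0.01 (SE 0.10), from 68.2 to 68.5 CPM.

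Among the 7 beta tubulins, 4 isotypes that neurons make were lower at an unadjusted p below 0.05 (57.1%; background 7.42%). Tubb2a and Tubb2b, both among these 4, were 96.5% identical in coding sequence. They are not separate results to the extent that the counting moved reads between them. Tubb2a (chromosome 13, 34074274 to 34078007, minus strand) was at 985, 966, 1123 and 1107 CPM in control 1 to 4 and at 693, 857, 846 and 963 CPM in cKO 1 to 4. The lowest control library and the highest cKO library, control 2 and cKO 4, were nearly level. Tubb2a had a log2 fold change of -0.32 (edgeR, SE 0.11, adjusted p = 0.182).

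Tubb2b, the neighbour of Tubb2a on chromosome 13 (34126748 to 34130466, minus strand), was at 1891, 1440, 1603 and 1722 CPM in control and at 1329, 1196, 1384 and 1444 CPM in cKO 1 to 4. Only cKO 4 reached above a control library, control 2. Its log2 fold change was -0.31 (edgeR, SE 0.11, adjusted p = 0.158). Tubb3, on chromosome 8, was at 3828, 3004, 3433 and 3703 CPM in control and at 2688, 2861, 2990 and 3099 CPM in cKO 1 to 4. The groups again met at control 2 and cKO 4, and the log2 fold change was -0.26 (edgeR, SE 0.10, adjusted p = 0.203).

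Tubb4a, on chromosome 17, was at 1155, 1027, 1236 and 1254 CPM in control 1 to 4 and at 899, 973, 1010 and 1014 CPM in cKO 1 to 4. All cKO libraries lay below control 2, the lowest control library. The log2 fold change was -0.26 (edgeR, SE 0.09, adjusted p = 0.184). Tubb5, the beta tubulin made by nearly all cells and the most abundant isotype here together with Tubb3, was at 6321 ± 569 CPM in control ganglia and 5930 ± 579 CPM in those of cKO animals (log2 fold change -0.09, 95% interval -0.32 to 0.13). Tubb4b had -0.22 (-0.56 to 0.11), and Tubb6, found in many cell types outside the nervous system, 0.15 (-0.30 to 0.59).

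The isotypes also took different shares of beta tubulin. Tubb5 held 30.6% to 33.8% of beta tubulin CPM per kb in control and 34.2% to 37.5% in cKO libraries, without overlap. The share of Tubb3 was 31.1% to 34.7% in control and 30.6% to 32.3% in cKO libraries, which overlapped. Tubb2a, Tubb2b, Tubb4a, Tubb4b and Tubb6 also overlapped, with mean shares of 11.3%, 12.6%, 9.07%, 1.58% and 0.297% in control and 10.4%, 11.8%, 8.79%, 1.56% and 0.378% in cKO ganglia. Tubg1, the gamma tubulin that seeds microtubules, was at 51.9, 64.1, 73.6 and 64.4 CPM in control 1 to 4 and at 50.9, 69.7, 57.0 and 65.9 CPM in cKO 1 to 4, groups that overlapped almost fully (log2 fold change -0.06, 95% interval -0.36 to 0.24).

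**Figure D3:**
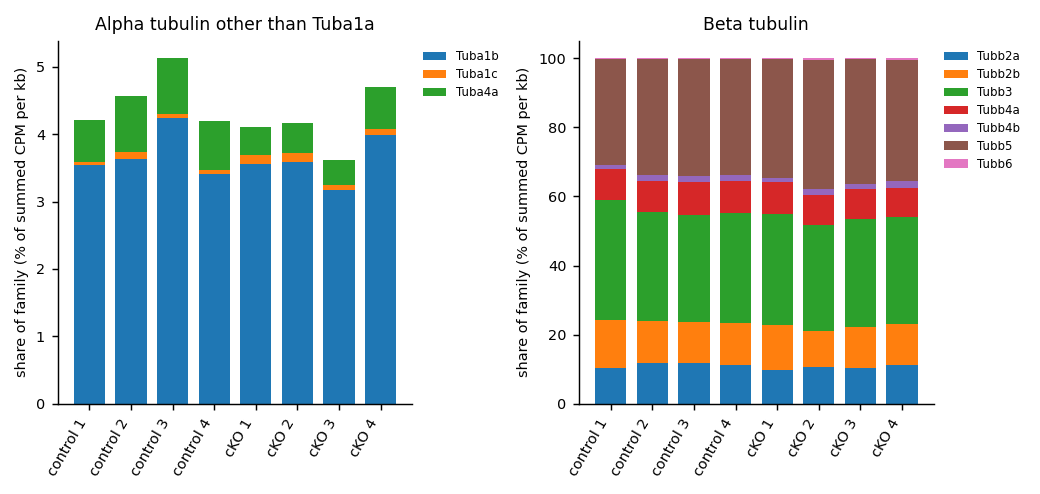
Share of each isotype in its tubulin family (y axis, % of the summed CPM per kb of exon) in each of the 8 libraries (x axis), for alpha tubulins other than Tuba1a (left) and for beta tubulins (right). Tubb5 takes 34.2% to 37.5% of beta tubulin in cKO and at most 33.8% in control libraries, and Tuba4a takes at most 0.625% of alpha tubulin in cKO libraries.

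All 9 structural MAPs had negative log2 fold changes, from -0.70 to -0.14, and none passed. Map2 (chromosome 1, 66175273 to 66442583, plus strand) had the smallest p of the 40 genes. It was at 610, 630.1, 482 and 534 CPM in control 1 to 4 and at 461, 368, 467 and 369 CPM in cKO 1 to 4. Control 3, the lowest control library, was just above cKO 3, the highest cKO library. Map2 had a log2 fold change of -0.44 (edgeR, SE 0.13, adjusted p = 0.0964).

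Map7, whose product recruits kinesin-1 to microtubules (chromosome 10, 20148471 to 20281590, plus strand), was at 56.3, 43.4, 43.6 and 44.7 CPM in control 1 to 4 and at 31.4, 19.0, 24.8 and 40.3 CPM in cKO 1 to 4. Of the cKO libraries, cKO 4 alone came close to the controls. Map7 had a log2 fold change of -0.70 (edgeR, SE 0.21, adjusted p = 0.104), and -0.91 without cKO 4 (adjusted p = 0.036). With each other library left out in turn it did not pass, with -0.55 without cKO 2 (adjusted p = 0.178) and an adjusted p of up to 0.226 without cKO 3.

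Map9 was at 153, 189, 157 and 171 CPM in control 1 to 4 and at 147, 130, 161 and 116 CPM in cKO 1 to 4. The groups overlapped through cKO 3. Map4, the MAP of most tissues outside the brain, was at 810.1, 878, 758 and 855 CPM in control 1 to 4 and at 699.8, 714, 758 and 724 CPM in cKO 1 to 4, where control 3 and cKO 3 were level. The log2 fold changes of Map9 and Map4 were -0.28 (edgeR, SE 0.12, adjusted p = 0.289) and -0.19 (SE 0.09, adjusted p = 0.298).

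Map4 (edgeR unadjusted p = 0.0505) and the MAPs not yet described had unadjusted p above 0.05. Map1b, which links microtubules in growing axons and had the highest count of the MAPs, was at 4089 ± 599 CPM in control ganglia and 3140 ± 765 CPM in those of cKO animals, a log2 fold change of -0.38 (95% interval -0.77 to 0.01). Mapt had -0.36 (-0.72 to 0.01) and Map1a, a MAP of mature neurons, -0.52 (-1.05 to 0.01). Map1a ranged from 110.3 CPM in cKO 2 to 328 CPM in control 1, and it overlaps Ppip5k1 on the opposite strand, whose log2 fold change was -0.36 (SE 0.13). Map6, which keeps axonal microtubules stable in the cold, had -0.22 (-0.48 to 0.03), and Map1s -0.14 (-0.59 to 0.31).

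The 3 end-binding proteins, which ride on growing plus ends, had log2 fold changes near 0. Mapre3, the neuronal one, was at 98.6, 93.9, 101.8 and 101.4 CPM in control 1 to 4 and at 91.4, 90.9, 85.8 and 104.9 CPM in cKO 1 to 4. The highest of all 8 libraries was cKO 4. The log2 fold change was -0.09 (95% interval -0.29 to 0.12). Mapre1 and Mapre2 had -0.04 (-0.25 to 0.17) and -0.06 (-0.25 to 0.14), and Mapre1 was at 0.00585 with scaling by library size alone.

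Of the 4 stathmins none passed, also at an unadjusted p below 0.05. Stmn2, the stathmin of growth cones, was at 4891, 5458, 6025 and 5908 CPM in control 1 to 4 and at 4016, 5483, 4882 and 5374 CPM in cKO 1 to 4. The highest library was control 3 and the lowest cKO 1. Its log2 fold change was -0.17 (95% interval -0.43 to 0.08). The neuronal stathmins Stmn3 and Stmn4 had -0.22 (-0.57 to 0.13) and -0.16 (-0.40 to 0.08). Stmn1, which dividing cells and young neurons make, had 0.09 (-0.26 to 0.43).

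Dcx and Dclk1 encode doublecortin proteins, which bind between the protofilaments of growing neurites. Dclk1 was at 513, 561, 417 and 513 CPM in control 1 to 4 and at 438, 379, 449.6 and 356 CPM in cKO 1 to 4. Control 3 was within the range of the cKO libraries. Dclk1 had a log2 fold change of -0.30 (edgeR, SE 0.12, adjusted p = 0.224). Dcx, on the X chromosome, ranged from 358 CPM in cKO 4 to 747 CPM in control 1, with a log2 fold change of -0.19 (95% interval -0.67 to 0.29).

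The CRMP genes encode cytosolic proteins, some of which bind tubulin dimers and relay semaphorin signals. Dpysl2, or CRMP2 (chromosome 14, 66802864 to 66868688, minus strand), was at 424, 500.1, 589 and 399 CPM in control 1 to 4 and at 329.4, 329.1, 340.0 and 406 CPM in cKO 1 to 4. cKO 1 to 3 lay close together below all controls, and cKO 4 lay just above control 4. Dpysl2 had a log2 fold change of -0.45 (edgeR, SE 0.14, adjusted p = 0.116). Dpysl3 had -0.38 (95% interval -0.82 to 0.05) and Dpysl5 -0.22 (-0.54 to 0.10). Dpysl4 and Crmp1 had -0.03 (-0.24 to 0.17) and -0.08 (-0.27 to 0.12); Dpysl4 was at 0.01 with library size alone. Crmp1 overlaps Evc on the opposite strand (log2 fold change 0.35). Basp1, a membrane protein of growth cones, was at 843, 496, 466 and 597 CPM in control 1 to 4 and at 634, 544, 508 and 567 CPM in cKO 1 to 4. Control 1 stood above all others, and the log2 fold change was -0.09 (-0.48 to 0.29).

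Ttl encodes the ligase that puts tyrosine back on the alpha tubulin tail (chromosome 2, 129065942 to 129096283, plus strand). It was at 156.5, 153.9, 131.1 and 156.2 CPM in control 1 to 4 and at 127.6, 109.8, 129.8 and 131.6 CPM in cKO 1 to 4. Control 3 was level with the cKO libraries, and the other 3 controls lay above them. The log2 fold change was -0.26 (edgeR, SE 0.10, adjusted p = 0.224). The tubulin folding cofactor gene Tbcb had -0.01 (95% interval -0.38 to 0.35; 0.03 with library size alone) and overlaps Polr2i on the opposite strand (0.01), and the severing enzyme genes Spast, which encodes spastin, and Katna1, a katanin subunit, had -0.05 (-0.28 to 0.18) and 0.08 (-0.20 to 0.35).

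**Figure D4:**
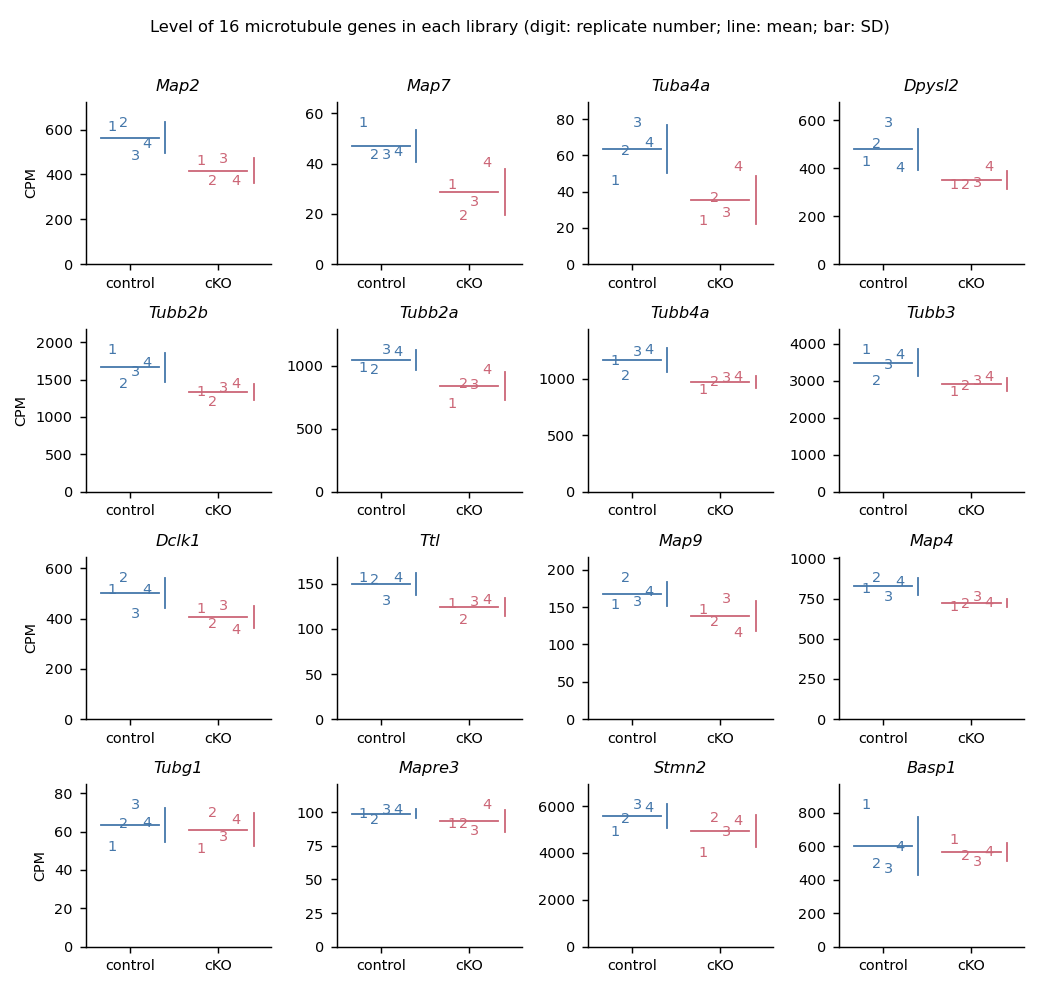
Level (y axis, CPM from 0) of 16 microtubule genes in control (blue) and cKO (red) libraries; each digit is the library with that replicate number, the horizontal line the group mean and the vertical bar the SD (n = 4). Map2, Map7, Tubb2a and Tubb4a show no overlap between groups, and in Tuba4a, Map7 and Dpysl2 cKO 4 is the cKO library nearest to the controls.

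A wider list of 104 microtubule genes that are not among the 40 was examined in the same fit. Of these, 94 were tested, 6 were below the filter on low counts and 4 had no row under their symbol. Passing lower were 2, Agtpbp1 and Jakmip1 (background 1.12%), and 0 passed higher. The median log2 fold change of the 94 was -0.11, and 66 of 94 were below 0.

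Agtpbp1 (chromosome 13, 59445742 to 59585227, minus strand) encodes a carboxypeptidase that trims glutamate chains from tubulin tails, and its loss in mice causes the degeneration of Purkinje cells. It was at 197.1, 232.1, 191.6 and 217.9 CPM in control 1 to 4 and at 155.4, 143.0, 152.4 and 159.7 CPM in cKO 1 to 4, so that the highest cKO library was well below the lowest control. Agtpbp1 fell by 0.46 on the log2 scale (edgeR, SE 0.10, adjusted p = 0.0356). The call was lost without control 2 (adjusted p = 0.127), control 3 (0.0504), control 4 (0.147), cKO 2 (0.11), cKO 3 (0.0878) or cKO 4 (0.0551), while the log2 fold change lay between -0.50 and -0.41 with any 1 library left out.

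Jakmip1, which encodes a neuronal protein that binds microtubules and Janus kinases, was at 45.1, 49.9, 51.9 and 49.5 CPM in control 1 to 4 and at 25.7, 30.3, 32.9 and 40.8 CPM in cKO 1 to 4. The cKO libraries spread more widely than the controls and stayed below them. Jakmip1 fell by 0.60 on the log2 scale (edgeR, SE 0.14, adjusted p = 0.0492), a call near the threshold. It was lost without control 2 (adjusted p = 0.152), control 3 (0.102), control 4 (0.148), cKO 1 (0.0666), cKO 2 (0.13) or cKO 3 (0.101), with library size alone (0.0661) and without the filter on low counts (0.0546), while the log2 fold change lay between -0.73 and -0.52 with any 1 library left out.

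The other 2 of the 4 genes with the smallest p in the wider list were Katnal1, a katanin-like severing enzyme, and Ttll7, a ligase that adds glutamate to beta tubulin. Katnal1 was at 75.6, 81.2, 71.9 and 77.5 CPM in control 1 to 4 and at 64.7, 55.1, 57.0 and 56.4 CPM in cKO 1 to 4, without overlap (log2 fold change -0.39, edgeR SE 0.09, adjusted p = 0.053). Without cKO 1 it passed (adjusted p = 0.039), as it did in DESeq2 (0.00144). Ttll7 was at 66.9, 89.6, 65.3 and 82.7 CPM in control 1 to 4 and at 55.4, 47.6, 51.9 and 61.2 CPM in cKO 1 to 4. These groups also lay apart, with a log2 fold change of -0.495 (edgeR, SE 0.13, adjusted p = 0.0731; DESeq2 0.0103).

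Within each group, the members divided by the length of their annotated exons. All exons of a gene are joined, so this length can exceed that of its main transcript. In control 3, the 20 members with 5 kb or more of exon lay at a median of -0.14 from their group mean on the log2 scale, and the 20 shorter ones at 0.15. The long members stood below the short ones also in control 4, cKO 2 and cKO 4, where the long and short medians were 0.05 and 0.09, -0.17 and 0.11, and -0.06 and 0.18. The order was the opposite in control 1 (0.09 and -0.17), control 2 (0.05 and -0.12), cKO 1 (0.14 and -0.23) and cKO 3 (0.14 and -0.07). As an example chosen after the values were seen, cKO 4 had the highest Tuba1a (3982 CPM) and the lowest Map1b (2418 CPM) of its group, and cKO 1 the lowest Tuba1a (2664 CPM) and the highest Map1b (3855 CPM). Both kinds of library occurred in both groups.

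The 5915 long and 7664 short genes among the other tested genes stood in the same order in each library. Their long and short medians were -0.12 and 0.08 in control 3 and 0.11 and -0.10 in cKO 1. Across the 40 members, Spearman's rho between length and deviation ran from -0.74 in control 3 to 0.74 in cKO 1, as a description over genes that share these libraries. The long members had a median log2 fold change of -0.22, with 20 of 20 below 0, and the short members one of -0.155, with 16 of 20 below 0. The same medians over the other tested genes were -0.0345 and 0.0258, a similar gap between long and short. What set the length pattern of each library was not tested.

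**Figure D5:**
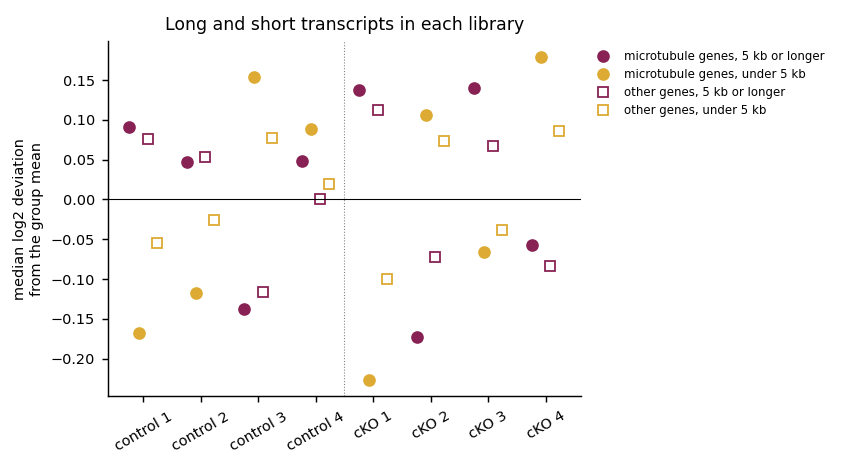
Median deviation from the group mean (y axis, log2) in each library (x axis). Purple marks genes with 5 kb or more of joined exons, and yellow shorter ones. Filled circles are the 40 microtubule genes and open squares other tested genes. Short members reach 0.18 in cKO 4 and -0.23 in cKO 1, and the other genes follow the same order in each library.

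A fit with a covariate for this pattern was added after the data had been seen. The covariate was each library's slope of level on log2 exon length over genes outside the 40. Levels were taken from the mean of all 8 libraries, so the covariate can hold part of the difference between groups. It ran from -0.0852 to 0.0765 in control and from -0.109 to 0.0801 in cKO libraries. It called 9 of the 40 genes, all lower in cKO ganglia (background 4.54%), and, over all tested genes, 722 higher and 663 lower. The 9 were Tuba4a, Map2, Tuba1b, Tubb2a, Dpysl2, Map1b, Tubb4b, Tubb4a and Stmn3, in the order of their p. Tuba4a had a log2 fold change of -1.04 (95% interval -1.31 to -0.77, edgeR adjusted p = 0.00114) in that fit and Map2 one of -0.37 (-0.51 to -0.22, adjusted p = 0.00766). Map1b had -0.28 (-0.42 to -0.14, adjusted p = 0.0238), while Map7 did not pass (adjusted p = 0.0938). Mapre3 was at -0.11 (-0.27 to 0.05), and Dcx was at -0.06 (-0.21 to 0.10).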

How the data were processed

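A library of polyA RNA was sequenced for each of 8 mice. The authors deposited whole-number read counts per gene symbol. They used STAR and the mouse build mm10, per the submitters' processing notes; the sources used here name no STAR version, counting program, annotation or strand setting. How reads that fit several tubulin genes were counted is thus unknown.

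The test was the quasi-likelihood test of edgeR 4.0.16, run in R 4.3.3 with robust fitting, TMM factors and the filterByExpr filter, and with group as its only term. P-values were adjusted by Benjamini-Hochberg over all genes past the filter, and 0.05 was the threshold. Each SE was derived from the F statistic and each 95% interval from the fit's degrees of freedom. CPM are scaled by TMM. Exact permutation tests were two-sided over all 70 assignments on mean log2 CPM (prior count 2). Exon lengths (all annotated exons of a gene joined), positions and coding sequences are those of GENCODE vM21 for GRCm38, which is mm10. The steps were tested on simulated counts. Replicates differed beyond sampling noise (chi-square per gene of at least 8.08).

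The members and lists were chosen with earlier results of these data known. Values in every library are given for the 12 members with the smallest p and for the member with the smallest p of each role; of the other microtubule genes, those that passed and the 4 with the smallest p are named, and of each cell type list at most 2. Genes that overlap a member were named after their values were seen, as were Th, Dbh, Prph, Uchl1 and the members with values beyond this rule. The same holds for Fabp7, Prrxl1, Col1a1, Col1a2 and Col3a1. The alternatives were other size factors, filters and tests (DESeq2 1.42.0, limma 3.58.1), repeated symbols summed, sample numbers as a block, and libraries left out. A further one, a covariate for exon length, was added after the data were seen. Figures were drawn with matplotlib 3.10.9. Some sequences are not reported here.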

Additional observations from a re-analysis of the deposited data

Results flagged for a closer look

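Among 90 groups of 4 libraries, 1 library stood far from the other 3 in 4 cases, about the share that chance gives (about 1 in 20 groups). Tubb5 was at 5066 CPM in cKO 1 and between 6137 and 6270 CPM in the other cKO libraries. Map7 was at 56.3 CPM in control 1 and between 43.4 and 44.7 CPM in the other controls. Dpysl2 was at 406 CPM in cKO 4 and between 329 and 340 CPM in the other cKO libraries. Ttl was at 131 CPM in control 3 and between 154 and 157 CPM in the other controls.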

How the results depend on the processing

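The members' median log2 fold change stayed negative in all alternatives, from -0.231 to -0.152, and 0 members were called higher in any. Members called lower numbered 4 with DESeq2, 4 with limma voom with sample weights, 9 with the length covariate and 0 to 2 with 1 library left out. Over all tested genes, DESeq2 called 565 higher and 447 lower, voom with sample weights 883 and 656, the length covariate 722 and 663, and the fit without control 4 and cKO 4 26 and 39. With 1 library left out these counts ran from 33 to 318 higher and from 40 to 196 lower. Of the other microtubule genes, 10 were called lower with DESeq2, 11 (and 1 higher) with sample weights, 10 (and 1 higher) with the length covariate, 1 with library size alone, 1 without the filter, 0 without control 4 and cKO 4 and 0 to 3 with 1 library left out. Agtpbp1 and Jakmip1 lost their calls without control 4 and cKO 4 (adjusted p = 0.193 and 0.0826), and Jakmip1 without control 1 and cKO 1 (0.0557). Causes were not tested.

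Same-numbered samples correlated at 0.725, 0.352, -0.302 and 0.265, control 3 correlated best with cKO 2 (0.404), and the labels do not say what a shared number means, so whether the numbers pair the samples was not settled. A replicate block called 2 members lower (Tuba4a and Map7) and, over all tested genes, 425 higher and 262 lower.

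Of 900 values of single genes in the alternatives, 834 kept their direction and their side of the threshold, and 19 changed sign, all of genes that did not pass. With library size alone these were Mapre1 (0.00585), Dpysl4 (0.0141) and Tbcb (0.0339), and with sample weights Tubb6 (-0.0885), Dpysl4 (0.00307) and Spast (0.00733). Without control 1 and cKO 1 they were Dpysl4 (0.00266), Basp1 (0.0544) and Tbcb (0.0131), and without control 4 and cKO 4 Spast (0.000536). With 1 library left out they were Map1s (0.0359) and Basp1 (0.11) without control 1, Tubg1 (0.0134) and Tbcb (0.0678) without control 3, Tbcb (0.0159) without control 4, Tubg1 (0.00242) and Tbcb (0.0912) without cKO 1, Tbcb (0.00756) without cKO 3 and Spast (0.00974) without cKO 4. Over these fits the lowest values were -0.277 for Map1s, -0.197 for Basp1, -0.153 for Tubg1, -0.112 for Tbcb and -0.113 for Spast. Other members that did not pass moved by over 1.5 times with 1 library left out, among them Tuba1a (-0.221 to -0.0557), Tuba1b (-0.345 to -0.0735), Dcx (-0.358 to -0.0491), Stmn2 (-0.238 to -0.0998), Dpysl5 (-0.319 to -0.113), Map1a (-0.676 to -0.32), Mapt (-0.491 to -0.236) and Tubb6 (0.0179 to 0.292). Low counts limit Tuba1c most, at 37 to 106 reads per library.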
